A study of Drosophila melanogaster with 6 samples.

Results

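The genes described here are 10 genes of lipid uptake, storage, breakdown and carriage, found by their symbols among the 16666 symbols of the count table: LpR1, LpR2, Rfabg (the apolipophorin gene), mdy, Lsd-1, Lsd-2, bmm, Lip4, GLaz and NLaz. All 10 symbols were present. RNA was measured in fly astrocytes sorted by red fluorescence from brains of 1 genotype, UAS-mCD8::GFP; Alrm-Gal4; UAS-RedStinger, reared at 25 °C. There were 2 libraries from late larvae (the L3 stage), before neuronal remodelling, and 4 from adults, after it, each made from a pool of 1000 cells. Alrm-Gal4 drives both reporters in every library, so the sort rests on this 1 driver. Brains were digested for 15 min (L3) or 30 min (adult), so enzyme time and stage cannot be told apart.

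Insect lipids travel between tissues on lipophorin particles, which are built around apolipophorin. Cells bind these particles with receptors of the LDL receptor family and store the fatty acids as triacylglycerol in droplets, whose perilipin coat governs the access of lipases. Glia of the fly brain hold most of its lipid droplets, and lipocalins are known to help carry lipids from neurons to glia.

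Total counts were 1923097 and 2641671 in L3 and 745129 to 1287871 in adult, so 1 count equals 0.379 to 0.520 CPM (the count scaled to the library total) in L3 and 0.776 to 1.34 CPM in adult. Of 9082 genes tested with edgeR, 876 were higher in adult (9.65%) and 1188 lower (13.1%), with an adjusted p under 0.05 as the threshold. DESeq2, fitted to 13583 genes without edgeR's low count filter, gave 774 and 688. The astrocyte gene alrm, for which the driver is named, was at 861 and 1346 CPM in the larval libraries and between 994 and 1628 CPM in the adult ones. Of 9 tested astrocyte markers 6 rose and 2 fell, and alrm did not pass (edgeR adjusted p = 0.634). Obp44a, with neighbours' counts, fell from 10151 to 976 CPM. Dat, within 1% of the counts of a distant gene, rose from 25.2 to 470 CPM. The level of alrm therefore does not stand for the other astrocyte markers. The hemocyte marker Hml rose from 32.3 to 1278 CPM and made up most of the sum of 8 hemocyte markers, which was 47.7 and 47.8 CPM in L3 and 909 to 1564 CPM in adult. The rest of that list did not follow Hml: Pxn did not pass (adjusted p = 0.229), NimC1, He, eater and lz had mean adult levels of 0 to 1.76 CPM, and srp and Sr-CI had counts in adult library 3 alone. The part of hemocyte RNA in the results below was not tested. Nothing in the labels says that libraries of a stage came from separate animals, so p-values measure the spread between these libraries. A lower CPM can come from fewer cells with the transcript or from less of it per cell, which bulk counts do not tell apart. CPM values below are not corrected for transcript length and are compared between stages, 1 gene at a time. Ratios of 2 genes within a library serve only to compare stages.

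In adult astrocytes the lipophorin receptor gene LpR2 and the lipase gene bmm were higher, and the lipase gene Lip4 was lower. These were 2 rises and 1 fall among 8 tested genes, beside 9.65% and 13.1% of all tested genes. The stages did not overlap for 3 of the 8, LpR1, Lip4 and GLaz, beside 37.7% of all tested genes. The other 5 tested genes, LpR1, Lsd-1, Lsd-2, GLaz and NLaz, did not pass, and Rfabg and mdy had too few counts to be tested. The log2 fold change, adult minus L3, was positive for 5 of the 8 and negative for 3, with a median of 1.10 against -0.14 over all tested genes. With no low count filter, the median over all 10 genes was -0.15, against -0.15 over all genes. Both rises were lost when either L3 library was left out, whereas the fall of Lip4 was kept whichever library was omitted. The counts of Lip4 were the same as those of another locus, however, and GLaz, NLaz and Rfabg also had a symbol with the same or nearly the same counts.

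**Figure D1:**
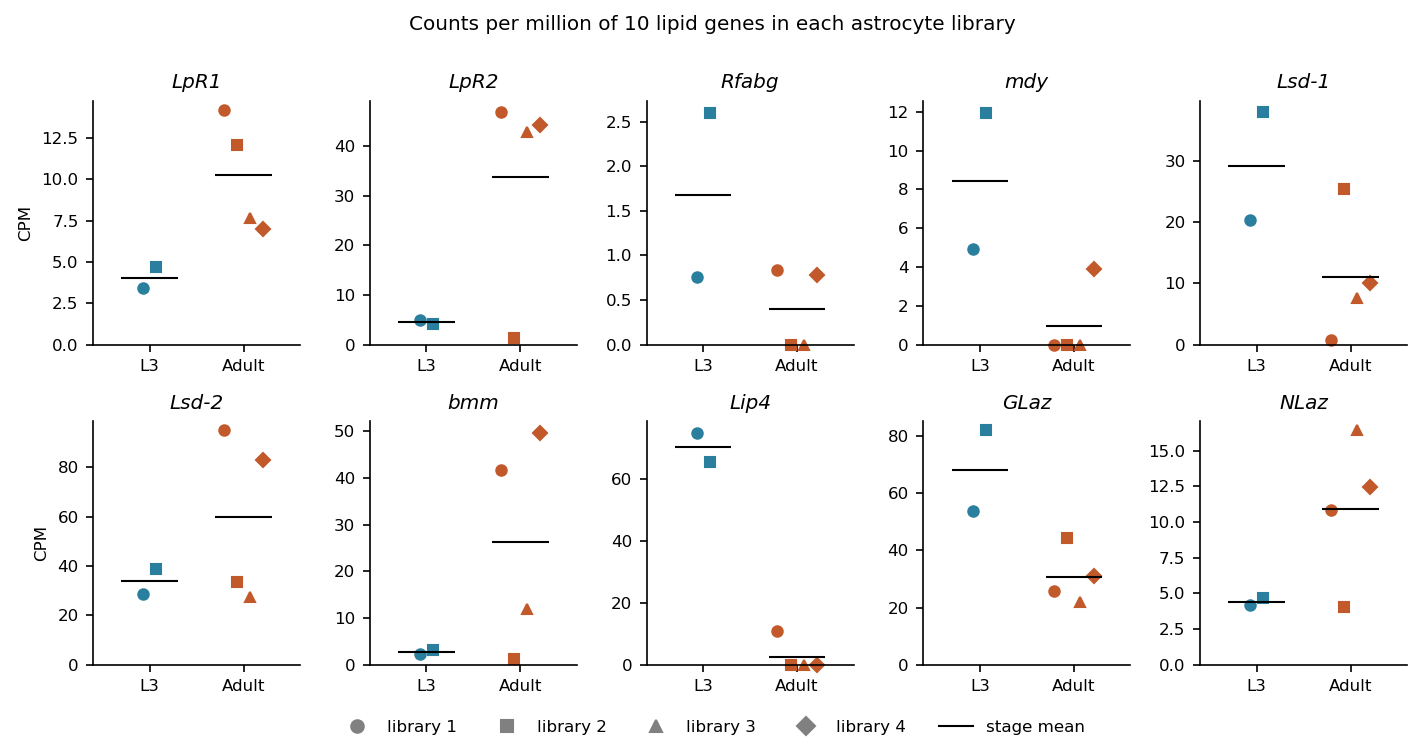
CPM of each of the 10 genes (y axis, from 0, scaled per gene) in the L3 (blue) and adult (orange) libraries; marker shapes give the library number and bars the stage mean. Adult library 2 lies with the L3 libraries for LpR2 and bmm, at 1.34 CPM for each, and the only adult counts of Lip4 are in library 1.

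The pair of lipophorin receptor genes lie next to each other in the genome and encode receptors that load lipid from lipophorin into cells. LpR2 had 4.92 and 4.16 CPM in L3 and 46.8, 1.34, 42.7 and 44.3 CPM in adult libraries 1 to 4. Adult libraries 1, 3 and 4 were close to each other and far above L3, and library 2 was below both L3 libraries, so the stages overlapped. The means were 4.54 ± 0.538 CPM (SD, n = 2) and 33.8 ± 21.7 CPM (SD, n = 4), a log2 fold change of 2.91 (SE 0.86, edgeR adjusted p = 0.0174). Library 2 held 1 count of LpR2, with an exact 95% interval of 0.0340 to 7.48 CPM, and the lowest bound among the other adult libraries was 30.4 CPM. The difference between adult libraries was larger than counting error if each count is an independent molecule. Whether reads of the same molecule were collapsed was not given, and these intervals cover no other error. Omitting L3 library 1 gave a log2 fold change of 3.23 that did not pass (adjusted p = 0.116), and omitting L3 library 2 gave 2.68 (adjusted p = 0.107).

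LpR1 had 3.41 and 4.68 CPM in L3 and 14.2, 12.1, 7.67 and 6.99 CPM in adult. All 4 adult libraries lay above both L3 libraries, a separation also seen in this direction in 14.8% of all tested genes. Only 7 to 17 counts stood behind each value, and the gene did not pass (log2 fold change 1.30, SE 0.93, adjusted p = 0.348). In adult library 2, where LpR2 was low, LpR1 was not: it had 9 counts there against 1 of LpR2. The log2 ratio of LpR1 to LpR2 within a library was -0.51 and 0.16 in L3, and -1.69, 2.66, -2.40 and -2.60 in adult. The ratio was lower than in L3 in 3 adult libraries and higher in library 2. It did not differ between stages beyond the spread (difference -0.83, two-sided exact permutation p = 0.80, and 0.80 after adjustment over 3 ratios, where 0.133 is the smallest possible p).

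Rfabg, which encodes the protein scaffold of lipophorin and is known as a product of the fat body, was close to 0 in every library. It had 2 and 5 counts in L3 and 1, 0, 0 and 1 in adult, so the floor of 3 counts was passed in L3 library 2 alone. Summed counts per summed total were 3.18 times as high in L3 as in adult, and the counting interval, 0.605 to 31.3, includes equality. Each of these counts was also listed for Actbeta, the next gene, which lies on the opposite strand and encodes an activin ligand. Of 9 fat body markers, 1 had no count in any library, Fbp1, and the list summed to 26.1 and 47.8 CPM in L3 against 24.8 to 55.0 CPM in adult. The larval serum protein gene Lsp1beta fell from 25.5 ± 10.95 CPM to 0.548 ± 1.10, with 2 counts in all adult libraries, and the yolk protein gene Yp2, with the counts of a neighbour, rose from 3.85 to 37.3 CPM. A part of fat body RNA in the counts of Rfabg was not tested.

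The gene mdy encodes the acyltransferase DGAT1, which adds the last fatty acid in the making of triacylglycerol. It had 13 and 23 counts in L3, 0 in adult libraries 1, 2 and 3 and 5 in adult library 4, or 4.92, 11.96, 0, 0, 0 and 3.88 CPM. Both L3 libraries were above all adult libraries, by a narrow margin for library 4. Summed counts per summed total were 6.54 times as high in L3 (counting interval 2.56 to 21.3). The gene fell under the low count filter, and with no filter it did not pass (log2 fold change -2.68, SE 1.43, adjusted p = 0.261). The exact 95% upper limits behind the 0 counts were 3.08, 4.95 and 4.04 CPM in adult libraries 1 to 3.

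The perilipin genes encode droplet coat proteins with different known roles: Lsd-1 recruits lipase activity upon hormonal stimulation, and Lsd-2 shields stored fat. Lsd-1 had 20.4 and 38.0 CPM in L3 and 0.835, 25.5, 7.67 and 10.1 CPM in adult. Adult libraries 1, 3 and 4 lay below L3 and library 2 lay between the L3 libraries. The gene did not pass (29.2 ± 12.4 CPM against 11.02 ± 10.4, log2 fold change -1.55, SE 0.76, adjusted p = 0.147). Lsd-2 had 28.8 and 39.0 CPM in L3 and 95.2, 33.6, 27.4 and 83.1 CPM in adult. Adult libraries 1 and 4 were above L3 and libraries 2 and 3 were not, and the gene did not pass (log2 fold change 0.89, SE 0.52, adjusted p = 0.237). Lsd-1 overlaps CG10214 on the opposite strand, and its counts differed by 20.6% of their sum from those of its neighbour CG10375.

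The counts of Lsd-1 and Lsd-2 were 54 and 76 in L3 library 1 and 73 and 75 in L3 library 2. In the adult libraries they were 1 and 114, 19 and 25, 7 and 25, and 13 and 107. The log2 ratio of Lsd-1 to Lsd-2 was -0.26 ± 0.319 in L3 (SD, n = 2) and -2.85 ± 2.51 in adult (SD, n = 4), lower by 2.59. Adult library 2, at -0.39, lay within the L3 values of -0.49 and -0.04, so the ratio was below L3 in 3 of 4 adult libraries. An exact permutation test gave p = 0.267 (two-sided, adjusted p = 0.40 over 3 ratios). Leaving out adult library 1, with its single count of Lsd-1, brought the difference to -1.45.

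**Figure D2:**
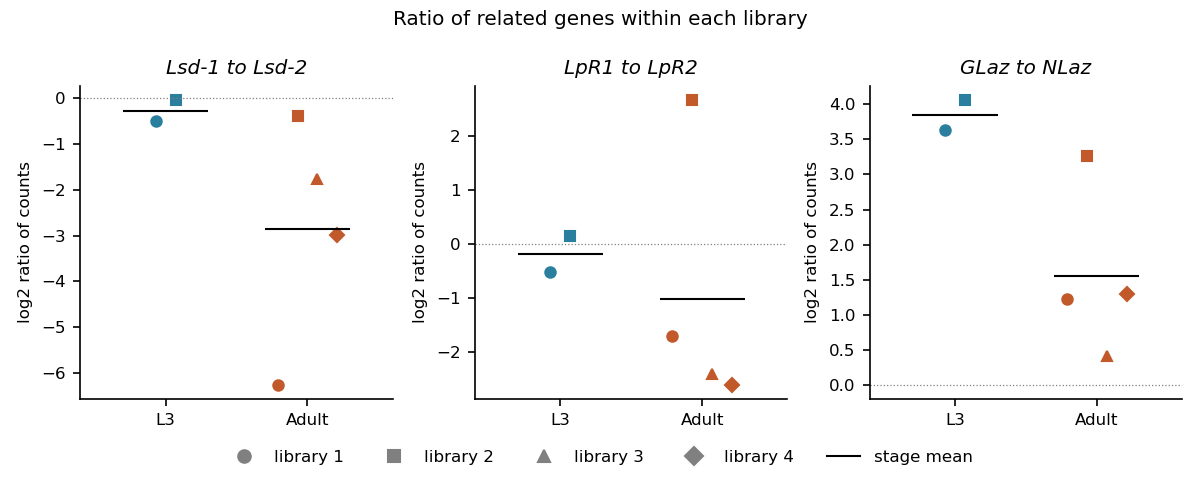
Log2 ratio of the counts plus 0.5 of 2 related genes within each library (y axis), for L3 (blue) and adult (orange); shapes give the library number, bars the stage mean and the dotted line equal counts. The stages overlap for the perilipins and the receptors, and do not for GLaz to NLaz, where adult libraries lie between 0.40 and 3.26 and L3 libraries at 3.63 and 4.06.

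The gene bmm (brummer) encodes the fly counterpart of adipose triglyceride lipase, which starts the breakdown of stored triacylglycerol. It had 6 counts in each L3 library, or 2.27 and 3.12 CPM, and 41.7, 1.34, 12.1 and 49.7 CPM in adult. Adult libraries 1 and 4 were far above L3, library 3 was moderately above it, and library 2, with 1 count, was below it. The means were 2.70 ± 0.60 CPM (SD, n = 2) and 26.2 ± 23.2 CPM (SD, n = 4), a log2 fold change of 3.40 (SE 1.01, edgeR adjusted p = 0.0180). It did not pass when L3 library 1 (log2 fold change 3.35, adjusted p = 0.157) or L3 library 2 (3.48, adjusted p = 0.0992) was omitted. The same held for adult library 4 (2.94, adjusted p = 0.0733). No other gene within 10 rows of the table had counts within 5% of those of bmm, and the nearest, CG17839, differed by 23.3% of the summed counts.

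The rises of LpR2 and bmm were also lost with edgeR's earlier quasi-likelihood method (log2 fold changes 2.83 and 3.23, adjusted p = 0.174 and 0.178) and with limma-voom (2.48 and 2.79, adjusted p = 0.222 and 0.205). With DESeq2, bmm passed (adjusted p = 0.0484) and LpR2 did not (adjusted p = 0.0542). Both genes were lowest in adult library 2, the shallowest library, and highest in libraries 1 and 4. Summed markers of other cell types took different orders over the adult libraries. Ensheathing glia markers, at 44.7 and 101 CPM in L3, were at 145, 107, 128 and 184 CPM in adult libraries 1 to 4. Their sum was lowest in library 2 and highest in libraries 4 and 1, as bmm was, but its 2 genes differed. Eaat2 was at 45.9, 59.1, 66.9 and 104 CPM, lowest in library 1, and CG9657 at 99.4, 48.3, 61.4 and 80.0 CPM. The hemocyte sum was also lowest of the adults in library 2, through Hml. Pxn, of the same list, was highest there, at 32.6, 61.7, 5.48 and 8.54 CPM in adult libraries 1 to 4. Neuron markers, at 167 and 278 CPM in L3, were at 392, 640.2, 439 and 554 CPM in adult, highest in library 2, although elav, nSyb and brp within that list were lowest there among the adults. Cortex glia markers, at 210.1 and 316 CPM in L3, were at 503, 491, 495 and 418 CPM, and surface glia markers, at 117 and 92.6 CPM, at 101, 134, 83.3 and 112 CPM. Of 11 tested neuron markers 3 rose, nSyb and, with the counts of neighbours, Gad1 and Ddc. Of 4 cortex glia markers 2 rose, of 2 ensheathing glia markers 1 rose, and of 4 surface glia markers 1 fell. The part of RNA from these cells in the rises was not tested.

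Among 3012 candidate genes with a given name and a mean of at least 20 CPM, the nearest to LpR2 over the 6 libraries were DIP-iota, an immunoglobulin-family surface protein gene, and the kinase gene Pkn. Their centred log2 CPM differed from that of LpR2 by a root mean square of 0.624 and 0.780. DIP-iota had 28.0 and 12.5 CPM in L3 and 91.0, 10.7, 58.1 and 69.1 CPM in adult. Neither DIP-iota nor Pkn passed (log2 fold changes 1.46 and 1.34, edgeR adjusted p = 0.0850 and 0.0992). The nearest to bmm were the kinase gene fray (0.610) and the tetraspanin gene Tsp66E (0.703). fray rose, with 16.3 and 21.3 CPM in L3 and 209, 44.3, 124 and 283 CPM in adult (adjusted p = 0.000439). The nearest genes were picked for likeness over these same 6 libraries. A low adult library 2 in them is therefore no separate observation.

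Lip4 encodes a lipase of the acid lipase family and is known as a target of the transcription factor FOXO. It had 198 and 126 counts in L3 and 13, 0, 0 and 0 in adult, or 75.0 and 65.5 CPM in L3 and 10.9 CPM in adult library 1. The stages did not overlap, as in 22.9% of all tested genes in this direction, and the L3 libraries were close to each other. Its mean fell from 70.2 ± 6.67 CPM (SD, n = 2) to 2.71 ± 5.43 CPM (SD, n = 4), a log2 fold change of -4.50 (SE 0.85, edgeR adjusted p = 0.000309). All adult counts were in library 1. The L3 mean was 69.0 times the floor of 3 counts taken over the 3 remaining adult libraries together, 1.02 CPM. With library 1 left out, that value is no bound on the stage difference. Library by library, the exact 95% upper limits behind the 0 counts were higher, at 4.95, 4.04 and 2.86 CPM. The fall was lost with DESeq2 (log2 fold change -4.74, adjusted p = 0.331) and with the replicate block on 4 libraries (adjusted p = 0.0666).

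The counts of Lip4 were listed unchanged for 2 more symbols, the cytochrome P450 genes Cyp4ac2 and Cyp4ac3, 879 and 878 rows away in the table. All 337 counts agreed, library by library. The match extended to the row beside each: Lrr47, next to Lip4, and Cyp4ac1, next to Cyp4ac2, both had 7 and 1 counts in L3 and 14, 0, 0 and 0 in adult. The fall therefore cannot be assigned to Lip4 alone. The named genes nearest to Lip4 in their pattern were nop5, a gene of small nucleolar ribonucleoproteins, and a small nucleolar RNA symbol that had the same CPM of 135 and 139 in L3 and 28.4, 1.34, 5.48 and 1.55 in adult (root mean square 0.390). They were picked for this likeness, so their adult maximum in library 1, as for Lip4, is no separate observation.

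**Figure D3:**
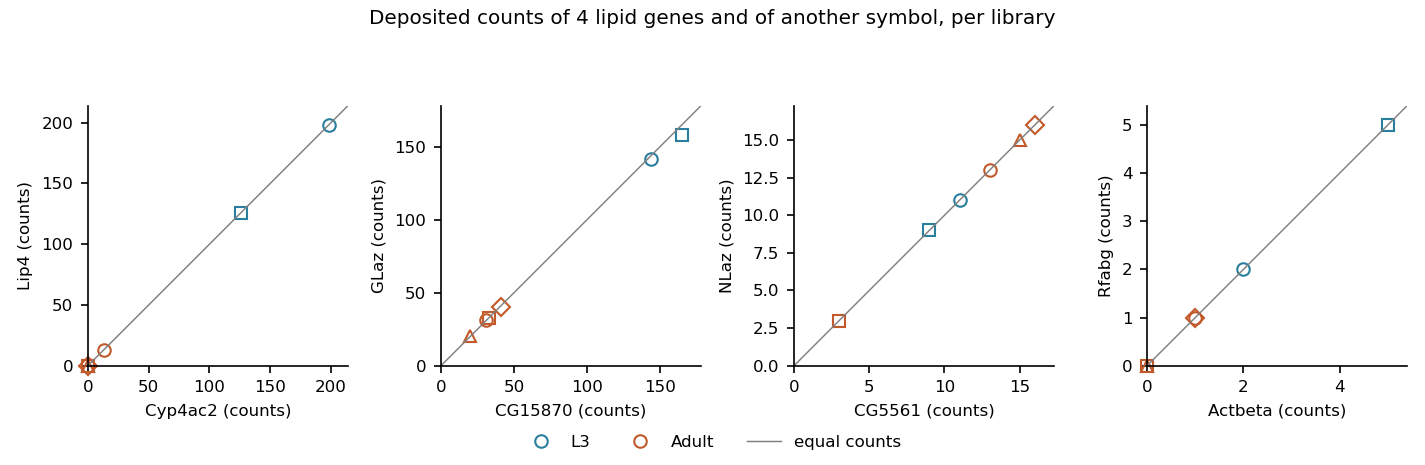
Deposited counts of Lip4, GLaz, NLaz and Rfabg (y axis) against those of another symbol (x axis), 1 point per library, L3 in blue and adult in orange; the line marks equal counts. Every point of Lip4, NLaz and Rfabg lies on the line, and those of GLaz differ from CG15870 by 1.17% of the summed counts.

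GLaz and NLaz encode lipocalins related to vertebrate apolipoprotein D, named Glial and Neural Lazarillo after a grasshopper protein. GLaz had 53.8 and 82.2 CPM in L3 and 25.9, 44.3, 21.9 and 31.1 CPM in adult. Every adult library lay below both L3 libraries, although the L3 libraries differed from each other by 1.53-fold. The gene did not pass (68.0 ± 20.1 CPM against 30.8 ± 9.75, log2 fold change -1.17, SE 0.48, adjusted p = 0.0820). The counts of GLaz were nearly those of CG15870, its neighbour on the same strand, and differed by 6.09% of the sum from those of Nrk, a receptor kinase gene beyond it. Nrk itself fell from 79.9 to 31.6 CPM (log2 fold change -1.36, adjusted p = 0.0390). With 1 row kept for these 3 symbols, that of Nrk, the row passed (log2 fold change -1.37, adjusted p = 0.0477).

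NLaz had 4.16 and 4.68 CPM in L3 and 10.9, 4.03, 16.4 and 12.4 CPM in adult. Adult libraries 1, 3 and 4 were above L3 and library 2, with 3 counts, was below it, so the stages overlapped (log2 fold change 1.31, SE 0.92, adjusted p = 0.337). The same counts were listed for 5 symbols before it in the table, CG5556, CG5561, CG31924, CG5565 and CG31659, and cannot be assigned to 1 of the 6. The ratio of GLaz to NLaz counts was 12.9 and 17.6 in L3 and 2.38, 11, 1.33 and 2.50 in adult. The log2 ratio was 3.85 ± 0.303 in L3 (SD, n = 2) and 1.54 ± 1.21 in adult (SD, n = 4), a difference of -2.30 without overlap. The exact permutation p was 0.133 (two-sided, adjusted p = 0.40), the smallest that 2 against 4 libraries allow.

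**Figure D4:**
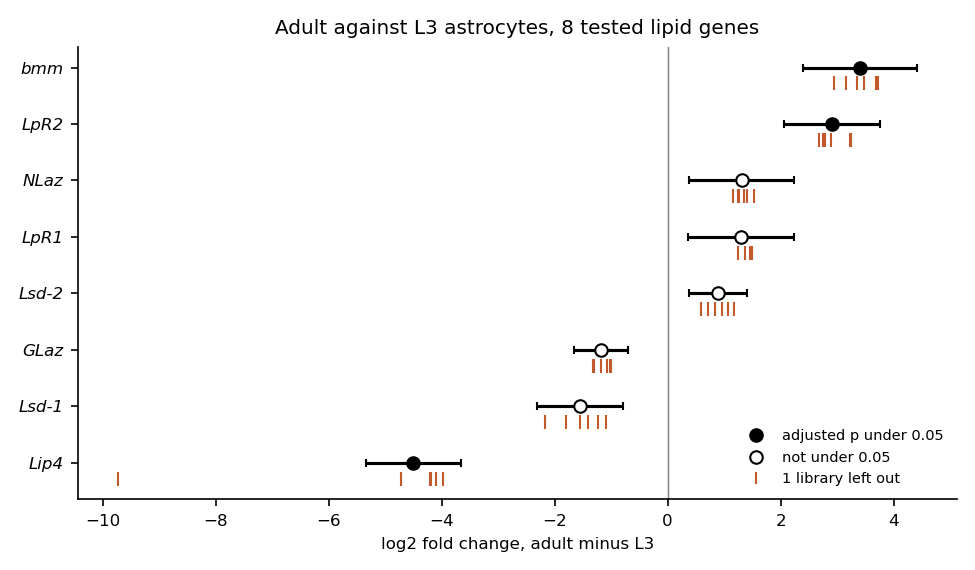
Log2 fold change, adult minus L3 (x axis), of the 8 tested genes with its SE as bars; filled points have an adjusted p under 0.05, and orange ticks are the values with 1 library left out. No tick crosses 0, and the tick of Lip4 at -9.74 is the fit without the only adult library that had counts of it, a value that depends on the prior count.

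Variation between adult libraries was near the level of all tested genes: the median coefficient of variation of the 8 tested genes was 60.8% against 61.5%, and 4 of the 8 lay above the latter. The coefficient of variation over the adult libraries was 31.7% for GLaz, 33.9% for LpR1, 47.3% for NLaz, 57.4% for Lsd-2, 64.2% for LpR2, 88.4% for bmm and 94.5% for Lsd-1. It was 200% for Lip4 and mdy, which had counts in a single adult library. Adult library 2 was the lowest for LpR2, bmm and NLaz and the highest for Lsd-1 and GLaz. No adult library was therefore low for all of the genes.

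The wider lipid pathways were read from 9 lists with 135 other genes in the table, of which 90 were tested. In adult, 10 of these rose and 7 fell, 11.1% and 7.78%, beside 9.65% and 13.1% of all tested genes, and their median log2 fold change was -0.19 against -0.14. The counts were 1 and 2 without L3 library 1, 4 and 5 without L3 library 2, and 3 and 2 with edgeR's earlier method. Sharing of counts was common in the table, with 5789 of 9900 genes of at least 30 counts (58.5%) near-identical to a neighbour. Of the 17 called genes, 10 shared near-identical counts with a neighbour, 2 more had a distant gene within 1% of the summed counts, and 5 had neither. Those 5 were Lpin, Baldspot, Mtp, scu and Dbi. Counts at an unadjusted p under 0.05 are given below without the share of all tested genes at that level, which was not counted. That share is no smaller than the 22.7% called in either direction after adjustment, so these counts are no reading of a pathway.

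Of 7 tested genes for lipoprotein assembly and transport, 1 rose and 1 fell. The lipoprotein receptor gene mgl, which shared counts with BCL7-like, rose from 50.7 ± 20.9 to 168 ± 32.8 CPM (log2 fold change 1.76, adjusted p = 0.00293). Mtp, which encodes the transfer protein that loads lipid onto apolipophorin, fell from 34.7 ± 7.15 to 4.87 ± 5.07 CPM (log2 fold change -2.76, adjusted p = 0.0117). Mtp had 105 and 57 counts in L3 and 14, 0, 5 and 3 in adult, with no overlap, but did not pass when L3 library 1 was omitted (adjusted p = 0.155), nor when adult library 4 was (adjusted p = 0.0559). The rise of mgl was lost without L3 library 1 (adjusted p = 0.0826). Among 4 tested CD36 family receptor genes edgeR called 0, and 1 of them was lower at an unadjusted p under 0.05, while DESeq2 had 0 of 9 below that unadjusted level. That gene, CG3829, with the counts of zip, was at 90.3 and 41.2 CPM (adjusted p = 0.117).

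The list named triacylglycerol synthesis had 10 tested genes in 9 groups of shared counts, of which 3 rose and 0 fell, with 4 and 0 at an unadjusted p under 0.05. The list is broader than its name, with wun and CdsA in it, so these counts are not a reading of triacylglycerol synthesis alone. Lpin, which encodes the phosphatidate phosphatase lipin, went from 46.2 and 67.6 CPM in L3 to 139, 71.1, 126 and 169 CPM in adult (adjusted p = 0.0429), and adult library 2 was only just above L3. This call held in 4 of 15 alternative settings and was lost without either L3 library or adult library 1 or 4. The lipid phosphatase gene wun rose from 20.6 to 111 CPM and the glycerol-3-phosphate acyltransferase gene CG3209 from 32.0 to 87.7 CPM, the first with neighbours' counts and the second with those of a distant gene. Omitting L3 library 1 ended the call of wun (adjusted p = 0.0623), and omitting either L3 library, adult library 1 or adult library 4 ended that of CG3209, which held in 8 of 15 settings. The DGAT2-type genes CG1941, CG1942 and CG1946 had 0 to 8 counts in each library, too few to test.

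Of 7 tested genes of droplet coat and shape 1 rose, Cct2, a gene of phosphatidylcholine synthesis with the counts of CG12099, from 50.6 ± 0.202 to 233 ± 62.5 CPM (log2 fold change 2.18, adjusted p = 0.000391). Jabba, which encodes a histone-binding droplet protein and shared counts with Cyp12b2, was at 2.77 and 15.8 CPM and did not pass (adjusted p = 0.110). Of 9 tested lipases 1 rose and 1 fell, with 1 and 4 at an unadjusted p under 0.05. Lip3, with a neighbour's counts, rose from 5.82 to 42.2 CPM (adjusted p = 0.00969, and 0.155 with L3 library 1 omitted). The row of Hsl, the hormone-sensitive lipase gene, fell from 108 ± 4.17 to 14.2 ± 8.43 CPM (log2 fold change -3.04, adjusted p = 0.000181) and held in all 15 alternative settings. Hsl shared its counts with PCNA, the replication clamp gene, so this fall cannot be assigned to the lipase. CG31871, a lipase gene within 1% of the counts of the distant gene crc, was at 195 and 137 CPM and did not pass (adjusted p = 0.286). The paralogue of bmm, dob, which lies beside Lsd-2, had 9 and 12 counts in L3 and 0, 5, 0 and 0 in adult.

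**Figure D5:**
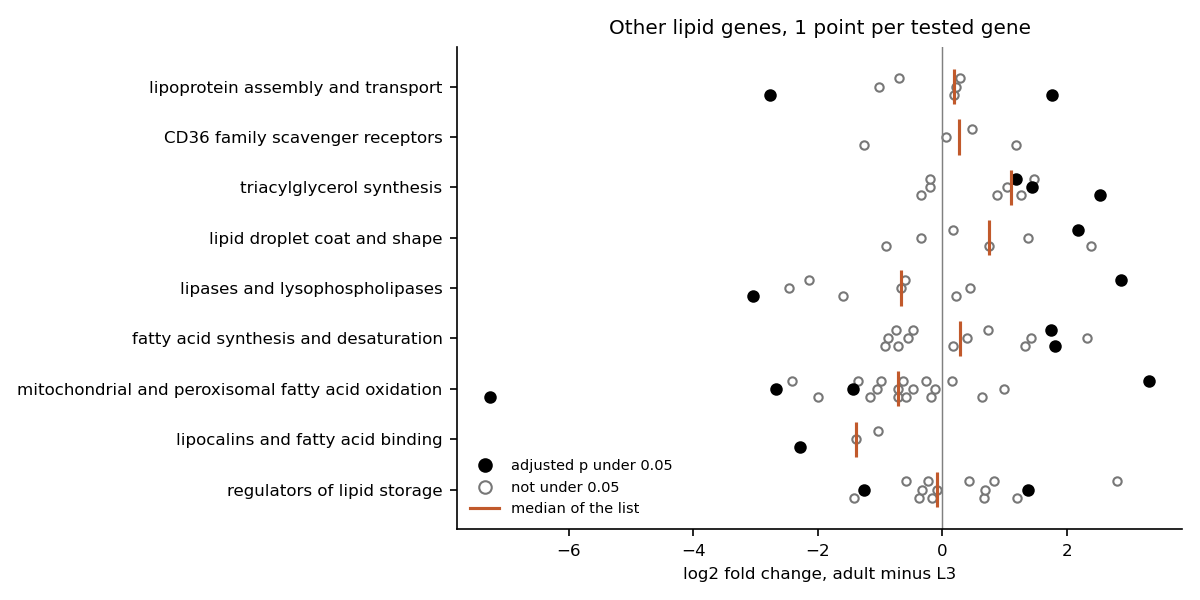
Log2 fold change, adult minus L3 (x axis), of each tested gene in 9 lipid lists, without the 10 genes above; filled points have an adjusted p under 0.05 and orange bars are list medians. The medians run from -1.38 for 3 genes of lipid binding to 1.11 for 10 genes of the list named triacylglycerol synthesis.

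Of 14 tested genes for fatty acid synthesis and desaturation 2 rose and 0 fell, with 4 and 1 at an unadjusted p under 0.05. The elongase gene Baldspot rose from 30.2 ± 5.80 to 98.6 ± 55.9 CPM (adjusted p = 0.0173), and FASN2, a fatty acid synthase gene with neighbours' counts, was the other. Neither passed without either L3 library or adult library 4. The desaturase gene CG9743 was at 1062 and 642 CPM (adjusted p = 0.0869) and had the counts of RpS7. Of 21 tested genes of fatty acid oxidation 1 rose and 3 fell, with 1 and 8 at an unadjusted p under 0.05. The carnitine carrier gene colt, with neighbours' counts, rose from 2.20 to 21.9 CPM, a call lost with either L3 library omitted (adjusted p = 0.237 and 0.0766). The peroxisomal oxidase gene CG5009, with the counts of OstDelta, fell from 80.1 to 11.2 CPM (adjusted p = 0.00247), and the dehydrogenase gene scu fell from 131 ± 40.0 to 49.7 ± 18.3 CPM (adjusted p = 0.0180). CG5009 passed whichever library was omitted, and scu did not without either L3 library or adult library 4. The thiolase gene yip2, with the counts of CG5885, was at 143 and 75.9 CPM (adjusted p = 0.0844). whd, the carnitine palmitoyltransferase gene, also with neighbours' counts, had 117 and 59 counts in L3 and 32, 2, 0 and 7 in adult and did not pass (adjusted p = 0.0602).

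Dbi, an acyl-CoA binding protein gene, fell from 85.6 and 57.7 CPM in L3 to 10.9, 12.1, 15.3 and 21.7 CPM in adult (log2 fold change -2.29, SE 0.55, adjusted p = 0.00402). It was the only call among 3 tested genes of lipid binding other than GLaz and NLaz, its 4 adult libraries were close to each other, and its counts matched no neighbour. Dbi did not pass when L3 library 1 was omitted (adjusted p = 0.130). CG8498, of the same list and with the counts of Rbsn-5, was at 80.8 and 41.1 CPM and did not pass (adjusted p = 0.0942). Karl, the lipocalin gene besides GLaz and NLaz, had 0 and 16 counts in L3 and 0, 0, 2 and 2 in adult. Among 15 regulators of lipid storage, CrebB rose (adjusted p = 0.0494) and srl, the fly counterpart of PGC-1, fell from 126 to 53.3 CPM (adjusted p = 0.0258), both with a neighbour's counts, and the ecdysone-induced nuclear receptor gene Eip75B, with the counts of CR45393, was at 269 and 215 CPM (adjusted p = 0.560). Without L3 library 1 neither CrebB nor srl passed (adjusted p = 0.402 and 0.283), and they held in 4 and 7 of 15 alternative settings.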

How the data were processed

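Whole-number counts per gene symbol were used as deposited, without normalization, 1 column per library. The submitters' processing notes name HISAT 0.1.5, HOMER and bcl2fastq. What each did, the annotation, the genome build and any collapsing of molecular identifiers were not given in the sources used here. Libraries were 3′ end libraries of a MARS-seq type, per the labels' protocols. All 6 columns were used and 0 others were present.

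CPM is the deposited count scaled to the library's total in the usual CPM unit. The test was edgeR 4.0.16 (R 4.3.3), quasi-likelihood, TMM scaling, filterByExpr, stage as the only term and Benjamini-Hochberg adjustment over all tested genes. The SE is the absolute log2 fold change divided by the square root of F, so it is approximate. Intervals are exact binomial at 95%, treat each count as independent and cover counting error only. Ratios used counts plus 0.5 and an exact permutation test (scipy 1.17.1). The fits were tested on simulated data. Alternatives were RLE scaling, DESeq2 1.42.0, limma-voom (limma 3.58.1), edgeR's earlier method, other filters, leaving out each library, 1 row per group of symbols within 10 rows that differ by under 5% of their counts, and a replicate block.

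The 10 genes and all lists were chosen with earlier results of these data known. From each lipid list, the called gene of lowest adjusted p per direction was named, or up to 3 with at least 4 calls. The most abundant tested gene was named too. For each called gene of the 10, the 2 nearest in pattern with at least 30% different counts were named. The marker lists followed these rules only in part: ana and Indy, the lowest-p calls of cortex and surface glia, were left unnamed above. So were Syx1A, Cyp4g15 and Tret1-1, the most abundant tested genes for neurons, cortex glia and surface glia. Genes outside these rules were chosen after their values were seen. From the lipid lists they include Jabba, dob, whd, CG3209, the CG1941 group, FASN2, scu, Karl, CrebB and CdsA. From the marker lists they include elav, brp, Pxn, NimC1, He, eater, lz, srp, Sr-CI and Fbp1. Outside the lists they include CG17839, CG32249, CG8507, Spt-I, CG31739, CG13282 and the genes that share counts. The listed names fabp, anox, james and magro had no match, and genes found under none of their listed names were not analysed here. Names and neighbours came from RefSeq and Ensembl tables of assembly release 6, and no coordinates are given. Libraries 1 and 2 of the stages share numbers, but the labels give no pairing, and their deviations from the stage means correlated at -0.01 and 0.02.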

Additional observations from a re-analysis of the deposited data

Results flagged for a closer look

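Among 60 sets of adult values checked, 7 had a library that stood apart from the other adult libraries by more than Dixon's critical value for 4 values, and chance gives about 1 in 20. That share is no yardstick here: Lip4, mdy and Lsp1beta had counts in a single adult library, which always meets the criterion, and nop5 and its small nucleolar RNA symbol share counts and were taken for their likeness to Lip4. LpR2 was at 1.34 CPM in adult library 2 and at 42.7 to 46.8 CPM in the others. Lip4 was at 10.9 CPM in adult library 1 and at 0 in the others, and nop5 and the snoRNA:nop5-x16-a symbol, which share counts, were at 28.4 CPM in adult library 1 and at 1.34 to 5.48 in the others. The gene mdy had 3.88 CPM in adult library 4, from 5 counts, and Lsp1beta had 2.19 CPM in adult library 3, from 2 counts, both with 0 elsewhere in adult. CG9743, a desaturase symbol with the counts of the ribosomal protein gene RpS7, was at 906 CPM in adult library 3 and at 530.3 to 568 in the others.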

How the results depend on the processing

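No tested member changed sign under any of its alternatives. With 1 library left out, members higher ranged from 0 to 2 and members lower stayed at 1 to 1, other lipid genes from 1 to 13 higher and 2 to 9 lower, and all genes from 403 to 1020 higher and 509 to 1189 lower. A fit with a lone L3 library takes its spread from the adults. Differences of log2 ratios ranged from -3.41 to -1.45 (perilipins), -2.06 to -0.30 (receptors) and -2.87 to -1.92 (lipocalins). edgeR's earlier method gave 521 higher and 558 lower genes, 0 members higher (2 at an unadjusted p under 0.05) and 3 and 2 other lipid genes. limma-voom gave 0 members higher (0 unadjusted) and 5 and 11 other lipid genes, with the median of all genes at -0.43 against -0.14. DESeq2 gave 688 lower genes, 1 member higher, 0 lower (0 unadjusted) and 4 other lipid genes lower, and no adjusted p (NA) for Rfabg. One row per count group gave 542 and 716 genes of 6032 tested and 2 members lower, Lip4 and, through the kept row of Nrk, GLaz. The replicate block on 4 libraries gave 306 and 186 genes, 0 and 0 members of 5 tested (0 and 1 unadjusted) and 0 and 1 other lipid genes; LpR2, bmm and NLaz fell under its filter, so it does not bear on those rises. The same 4 libraries without the block, a fit added after the data were seen, gave 0 members higher of the same 5 (0 unadjusted) and 4 other lipid genes lower. LpR2 passed in 8 of 13 alternatives, bmm in 8 of 13, Lip4 in 13 of 15 and GLaz in 1 of 15. That pass of GLaz came from the counts of Nrk, the row kept for its count group. The causes of these differences were not tested. Low counts limit LpR1, NLaz, mdy and Rfabg, and also LpR2 and bmm in L3 and in adult library 2.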

Other observations

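Lsd-2 had a distant symbol with close counts: CG32249, 8477 rows away, differed by 4.14% of the summed counts, with 79 and 74 counts in L3 and 112, 11, 35 and 112 in adult, against 76 and 75, and 114, 25, 25 and 107 for Lsd-2. In adult library 2 the symbols differed most, at 11 and 25 counts. GLaz had a distant symbol of this kind as well, CG8507, at 3.99% of the summed counts. Spt-I, the gene on the other side of GLaz on the opposite strand, which encodes a subunit of the enzyme that starts sphingolipid synthesis, had 78 and 59 counts in L3 and 0, 0, 5 and 1 in adult, so the near-equality of counts at GLaz did not reach it. CG31739 and CG13282, the 2 rows after mdy in the table, had 36 and 40, and 37 and 41, counts in L3 and a single count each in adult, in library 4, where mdy had its 5 adult counts.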
